A study of Mus musculus with 16 samples.

Results

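Cytochrome P450 enzymes of families 1 to 4 are haem proteins of the endoplasmic reticulum that oxidise drugs, environmental chemicals, steroids and fatty acids. The array carried probes for 54 mouse genes whose names follow the pattern Cyp1 to Cyp4, a subfamily letter and a gene number, out of 27962 gene names in all. They fall into 19 subfamilies, and each gene was represented by its brightest probe in the liver channel. The names were matched to current RefSeq symbols, under which the probe named Cyp2c44 belongs to Cyp2c23, Cyp3a41 to Cyp3a41a and Cyp4a12 to Cyp4a12a. The older names are kept here.

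The study asked whether breathing UV-Titan during pregnancy alters transcript levels in offspring liver. UV-Titan is titanium dioxide in the form of coated nanoparticles. All dams were time-mated C57BL/6BomTac mice. Control dams breathed filtered air, and treated dams breathed about 42 mg/m3 UV-Titan for 1 h per day on gestation days 8 to 18 by whole-body exposure. The offspring livers formed 4 groups, female control (n = 3), female UV-Titan (n = 5), male control (n = 4) and male UV-Titan (n = 4). Offspring were collected on postnatal day 2 or at weaning on postnatal days 23 to 24, but the age and the litter of each animal are not given in the sources used here. The p-values therefore measure the spread between these animals, some of which may share a litter.

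Family 1 enzymes are controlled by the aryl hydrocarbon receptor and act on planar aromatic compounds. Family 2 holds most of the enzymes that handle foreign chemicals in liver, many of them under the constitutive androstane receptor. Family 3 enzymes hydroxylate steroids and a large share of drugs and respond to the pregnane X receptor. Family 4 enzymes hydroxylate the far end of fatty acids, and the Cyp4a genes are textbook targets of PPAR alpha. In rodents many of these genes are switched on or off around birth and at weaning, and several differ between adult males and females.

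Each liver was hybridised in the red channel against a purchased universal mouse reference RNA in the green channel, on 16 Agilent arrays. For liver the dye is given as Cy3 in the label field but as Cy5 in the labelling protocol. The 7 hepatocyte marker genes on the array were brighter in red on every array. By the log2 ratio of red over green, Ddx3y and Eif2s3y were higher and Xist lower in every male than in every female. Red was therefore taken as liver. In the red channel 57.7 to 67.1% of an array's spots stood well above background. Exocrine pancreas markers stood apart on male control arrays 31 and 33, where the mean log2 ratio of the list was 3.79 and 2.75, against 0.59 to 1.01 on the other 14 arrays. Skeletal muscle markers reached a mean log2 ratio of 1.70 on male UV-Titan array 5. Their part in the P450 results was not tested, and the male differences of the P450 genes described below are also given without male controls 31 and 33, and by ratio without UV-Titan male 5 where that moved them by over 1.5 times. Fewer cells of a type and less RNA per cell cannot be told apart in these whole-tissue samples.

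The level of a gene is given below as the log2 ratio of liver over reference, a value that can be compared between arrays but depends on how much of the gene the reference RNA holds. The liver channel alone is given on a log2 intensity scale, quantile-normalised between arrays. Intensities of different probes were not set against each other. Values by array follow the order 35, 40 and 25 for female controls, 2, 8, 21, 10 and 16 for UV-Titan females, 41, 31, 43 and 33 for male controls, and 4, 5, 3 and 17 for UV-Titan males.

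Most of these P450 genes were on. A total of 46 of the 54 genes (85.2%) were well above background in red, here called on, in all 16 livers, against 56.5% of all gene names on the array. Another 6 genes were on in part of the arrays. These were Cyp2c55 and Cyp4x1 on 15 arrays, Cyp2d13 on 12, Cyp2c66 on 5, Cyp1a1 on 4 and Cyp2c65 on 3. Cyp2c38 and Cyp2j11 were on in no liver, like 25.7% of all gene names. At the edge of that rule, the log2 ratios of Cyp2c65 ran from -0.09 to 0.16 and those of Cyp1a1 from -0.02 to 0.34. Those of Cyp2c55, in contrast, ran from -2.72 to -1.92, and its reference signal was well above background on all 16 arrays. In all, 52 of the 54 genes entered the tests. These states are those of the brightest probe of each gene. The other probe of Cyp1b1, Cyp2b19, Cyp2g1 and Cyp2s1 was on in no liver, with mean log2 ratios of -0.37, 0.06, 0.03 and -0.10.

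Against the reference RNA, the enrichment in liver spanned a wide range. The mean log2 ratio over the 16 arrays was above 3 for 28 of the 54 genes and below 0 for 5 of them. Cyp3a41 stood highest at 8.09 ± 0.21 (SD, n = 16), which is 272-fold over the reference. Cyp4a14 followed at 7.85 ± 0.27, or 230.2-fold. At the other end, Cyp1b1 (-2.72 ± 0.22), Cyp2c55 (-2.50 ± 0.20) and Cyp2s1 (-1.93 ± 0.27) were lower in these livers than in the reference. For Cyp2c54, Cyp2d13, Cyp2g1 and Cyp2r1 no array had the reference well above background, so that only a lower bound can be given. The reference was well above background on all 16 arrays for 36 of the 54 genes. Where it was so on only part of the arrays, the ratio rests in part on reference values near background.

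**Figure D1:**
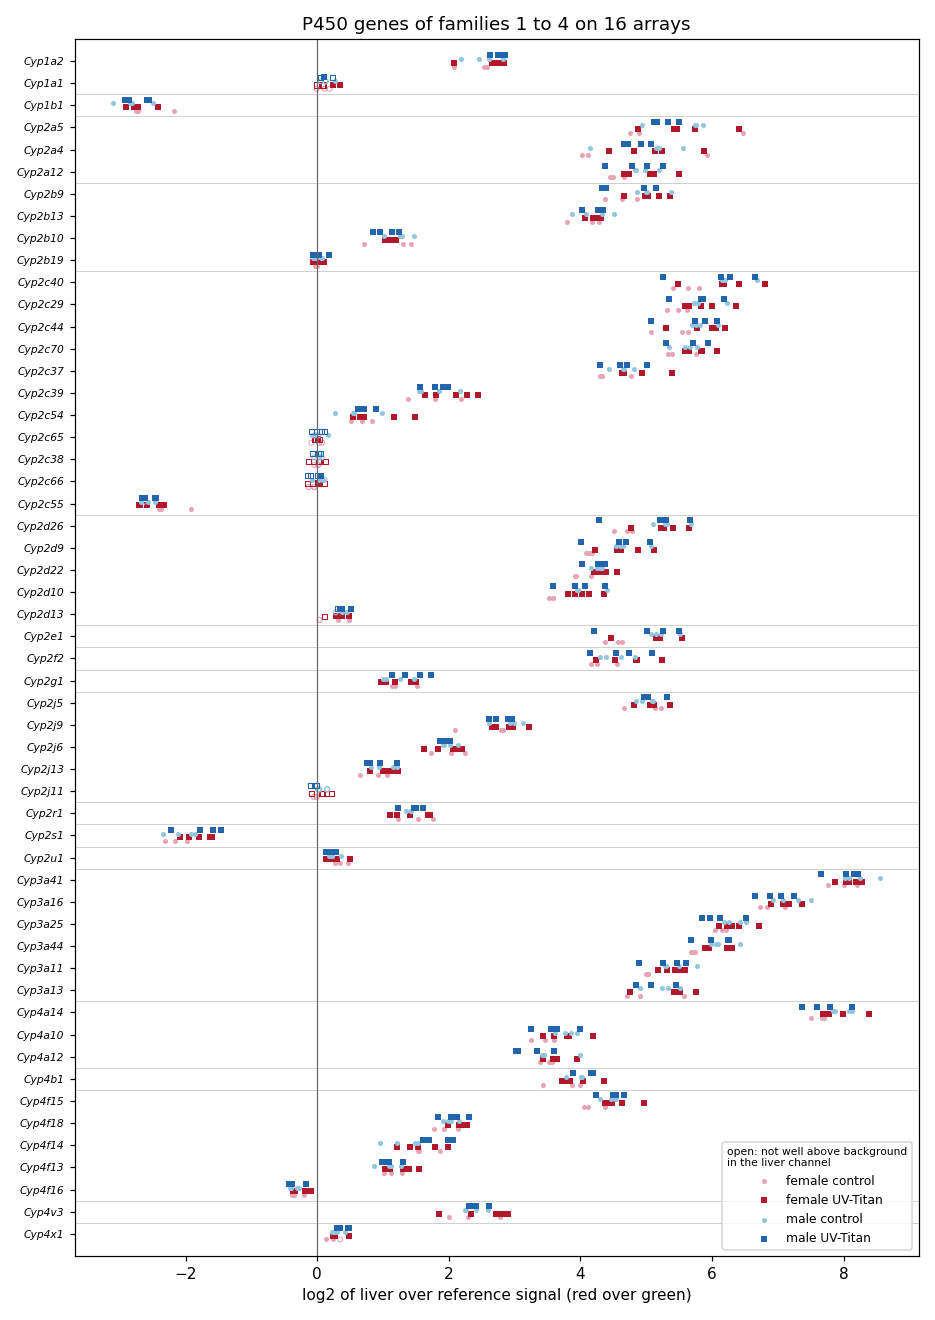
Log2 ratio of liver over reference signal (x axis) of the 54 P450 genes of families 1 to 4 (y axis, grouped by subfamily and ordered by mean) on each of the 16 arrays, coloured by group. Open symbols mark arrays where the probe was not on. Cyp3a41, Cyp4a14 and Cyp3a16 lie farthest to the right, Cyp1b1 and Cyp2c55 farthest to the left, and the groups overlap for most genes.

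In family 1, the aryl hydrocarbon receptor genes were in different states. Cyp1a2, the enzyme that resting liver uses for aromatic amines and caffeine, was on everywhere, while Cyp1a1, the form that is strongly induced by dioxin-like compounds, was near the detection limit. Cyp1a2 had log2 ratios of 2.07, 2.54 and 2.58 in female controls and 2.75, 2.08, 2.84, 2.66 and 2.73 in UV-Titan females. In males the ratios were 2.61, 2.82, 2.46 and 2.18 in controls and 2.74, 2.62, 2.86 and 2.76 after UV-Titan. Female control 35, UV-Titan female 8 and male control 33 were low, and the groups overlapped within each sex. Cyp1a1 ratios were 0.19, 0.11 and -0.01 in female controls, 0.08, -0.02, 0.23, 0.10 and 0.34 in UV-Titan females, 0.12, 0.13, 0.28 and 0.06 in male controls and 0.05, 0.03, 0.23 and 0.11 in UV-Titan males. Its probe was well above background on 0 of 3 female control arrays, 2 of 5 female UV-Titan arrays, 1 of 4 male control arrays and 1 of 4 male UV-Titan arrays, and the reference on none, so no fold is given. Cyp1b1, a family member that is better known outside the liver, had ratios of -2.73, -2.76 and -2.18 in female controls, -2.78, -2.73, -2.73, -2.91 and -2.43 in UV-Titan females, -2.84, -2.50, -3.11 and -2.81 in male controls and -2.87, -2.59, -2.93 and -2.56 in UV-Titan males. All 16 values lay below 0, and female control 25 was the highest.

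The promoters of Cyp1a1 and Cyp1a2, which lie next to each other on chromosome 9, are shown because the 2 genes differ in state. They are 250 bases before the RefSeq transcription start in assembly GRCm38.p6, 5′ to 3′ on the gene's strand, at chr9:57697363-57697612 on the plus strand and chr9:57683656-57683905 on the minus strand. Capitals mark the letters TATAAA and GCGTG, the core of the aryl hydrocarbon receptor response element, searched on both strands.
Cyp1a1: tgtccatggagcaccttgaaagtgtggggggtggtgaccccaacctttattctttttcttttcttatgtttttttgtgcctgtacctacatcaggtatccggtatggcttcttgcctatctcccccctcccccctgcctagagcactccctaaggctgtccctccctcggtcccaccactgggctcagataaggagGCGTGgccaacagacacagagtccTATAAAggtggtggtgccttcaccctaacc
Cyp1a2: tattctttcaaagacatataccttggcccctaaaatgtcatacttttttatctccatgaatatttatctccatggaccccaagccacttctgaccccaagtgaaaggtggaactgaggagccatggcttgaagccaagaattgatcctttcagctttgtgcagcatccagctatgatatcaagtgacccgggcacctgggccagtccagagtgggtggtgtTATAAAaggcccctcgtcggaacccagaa
The Cyp1a1 window holds GCGTG at 1 place and the Cyp1a2 window at none. TATAAA begins at base -30 in Cyp1a1 and at base -29 in Cyp1a2, and no match of one motif overlaps the other. Over the 44 P450 genes with a promoter in the RefSeq table, 20 (45.5%) held TATAAA or its reverse complement, against 13.0% of 27025 promoters of the same length. In 12 of those 20 the match began between bases -40 and -20. GCGTG or its reverse complement was found in 8 of 44 (18.2%), against 28.2% of all promoters. An exact direct repeat of AGGTCA with 1 base of any kind between, the consensus element of PPAR alpha, was found in 0 of 44, against 0.037%. The exact repeat is so rare that this 0 cannot show an absence, and looser forms were not searched. The 44 did not include Cyp4a10, Cyp4a12 or Cyp4a14, so the Cyp4a promoters were not searched. Also without a promoter in that table were Cyp2c44, Cyp2c54, Cyp2d13, Cyp2d22, Cyp2g1, Cyp2u1 and Cyp4x1. A match of letters is a description and not a binding site.

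In family 2, the Cyp2a, Cyp2d, Cyp2e and Cyp2f subfamilies were on and enriched in all groups, apart from Cyp2d13. Cyp2a5, the coumarin hydroxylase, and Cyp2a4, a closely related steroid hydroxylase, varied more between animals of a group than the other P450 genes did. Cyp2a5 had log2 ratios of 6.47, 4.89 and 4.75 in female controls and 5.42, 6.41, 4.87, 5.47 and 5.74 in UV-Titan females. In males its ratios were 4.94, 5.74, 5.87 and 5.76 in controls and 5.33, 5.13, 5.17 and 5.50 after UV-Titan. Female control 35 and UV-Titan female 8 were high, and female controls 40 and 25, UV-Titan female 21 and male control 41 were low. Cyp2a4 gave 5.93, 4.12 and 4.03 in female controls, 4.81, 5.87, 4.43, 5.13 and 5.24 in UV-Titan females, 4.15, 5.15, 5.56 and 5.20 in male controls and 4.92, 4.73, 4.67 and 5.08 in UV-Titan males, with the same arrays at the top. The pooled within-group SD was 0.62 for Cyp2a4 and 0.56 for Cyp2a5 by ratio, and 0.79 and 0.69 in the liver channel. The median over the 52 tested P450 genes was 0.223 by ratio and 0.202 in the liver channel, against 0.127 and 0.165 over all genes with an SD. Cyp2a12, another steroid hydroxylase, stood at 4.87 ± 0.31 (SD, n = 16).

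The probes of Cyp2a4 and Cyp2a5 share sequence, so their values are not independent. In build mm7 of the array files the Cyp2a4 probe is placed at chr7:23212199-23212258 on the plus strand and the Cyp2a5 probe at chr7:23212221-23212279 on the plus strand. These places overlap, while the RefSeq promoters of the 2 genes lie apart. Whether each probe reads the gene it is named for is therefore unsettled. Over an aligned stretch of 38 bases 35 were identical, and the first 30 bases of that stretch are shown with the differing bases in capitals.
Cyp2a4: aggacacTTCgtagacttgcagaggatatt
Cyp2a5: aggacacAGAgtagacttgcagaggatatt
Counted from 1 at the 5′ end of the Cyp2a4 probe, the differences are T30A, T31G and C32A. The promoters of the pair, compared over 249 bases, were 98.4% identical. Among probes of different P450 genes, 4 pairs shared at least 20 aligned bases at 80% identity or more, and transcripts of near-identical copies may add to each other's signal.

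Among the Cyp2b genes, Cyp2b10, the standard reporter of the constitutive androstane receptor, was on at a low ratio. Its reference signal was well above background on only 1 of the 16 arrays, so that ratio is not a measured fold. Cyp2b10 had log2 ratios of 1.30, 1.42 and 0.71 in female controls, 1.19, 1.04, 1.07, 1.06 and 1.14 in UV-Titan females, 1.28, 1.26, 1.02 and 1.48 in male controls and 1.13, 0.95, 1.25 and 0.84 in UV-Titan males. Female control 25 and UV-Titan male 17 were lowest, and the groups overlapped in both sexes. Cyp2b9 and Cyp2b13, which are female-predominant in adult mice, stood at 4.89 ± 0.33 and 4.19 ± 0.18 (SD, n = 16). Cyp2b19, a keratinocyte enzyme, had a signal in both channels and a ratio of 0.01 ± 0.07.

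The Cyp2c subfamily, enzymes that oxidise arachidonic acid and many drugs, held the widest spread of states among its 11 genes. Cyp2c40 (6.09), Cyp2c29 (5.78), Cyp2c44 (5.73), Cyp2c70, the enzyme that makes the muricholic acids of mouse bile (5.66), and Cyp2c37 (4.68) had mean log2 ratios above 3. Cyp2c39, a retinoic acid hydroxylase in mouse, stood at 1.88, with the reference well above background on only 4 arrays. Cyp2c54 was at least 1.65-fold over the reference. Cyp2c65 and Cyp2c66, known from intestine, and Cyp2c38 gave ratios of 0.01, -0.02 and 0.00, at or near the detection limit. Cyp2c29, an epoxygenase that responds to phenobarbital, had ratios of 5.62, 5.49 and 5.31 in female controls, 6.00, 6.37, 5.65, 5.84 and 5.59 in UV-Titan females, 5.73, 6.23, 5.78 and 5.74 in male controls and 5.83, 6.18, 5.86 and 5.34 in UV-Titan males. UV-Titan female 8, male control 31 and UV-Titan male 5 were highest, and female control 25 and UV-Titan male 17 lowest. These 3 high arrays shared a slide. Cyp2c55, a colon-enriched hydroxylase, was lower in liver than in the reference on every array.

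Of the Cyp2d genes, Cyp2d26, Cyp2d9, Cyp2d22 and Cyp2d10 had mean ratios of 5.14, 4.56, 4.24 and 3.95. Cyp2d13 was at least 1.23-fold over the reference and well above background on 12 arrays. Cyp2e1, which oxidises ethanol and acetaminophen, stood at 5.00 ± 0.42 (SD, n = 16). Cyp2f2, the naphthalene epoxidase of mouse lung and liver, had ratios of 4.55, 4.26 and 4.16 in female controls, 4.85, 5.24, 4.24, 4.87 and 4.52 in UV-Titan females, 4.61, 4.39, 4.83 and 4.30 in male controls and 4.73, 5.08, 4.54 and 4.15 in UV-Titan males. It was among the most variable genes in the liver channel, where its values ran from 12.52 to 14.25, and UV-Titan female 21 and male controls 31 and 33 were lowest there.

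The Cyp2j epoxygenases ranged from Cyp2j5 (5.05 ± 0.18), the form of liver and kidney, through Cyp2j9 (2.81), Cyp2j6 (1.97) and Cyp2j13 (0.98) to Cyp2j11, which was not detectable. Cyp2r1, a vitamin D hydroxylase, was at least 2.69-fold over the reference. By its brightest probe Cyp2g1, known from olfactory mucosa, was on in every liver and at least 2.40-fold over the reference. Its other probe was on in no liver. Cyp2u1, a long-chain fatty acid hydroxylase, stood at 0.26 ± 0.11.

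In family 3, all 6 Cyp3a genes were on in all 16 livers with mean log2 ratios of 5.21 or more. Cyp3a16, described as the form of fetal and newborn mouse liver, had ratios of 6.84, 7.11 and 6.74 in female controls and 7.08, 7.36, 7.16, 7.17 and 6.90 in UV-Titan females. In males its ratios were 6.93, 7.50, 7.08 and 7.31 in controls and 6.88, 7.05, 7.25 and 6.66 after UV-Titan. All 16 values exceeded 6, and the sexes overlapped. Cyp3a11, the main form of adult mouse liver and a pregnane X receptor target, had ratios of 5.03, 5.00 and 5.02 in female controls and 5.49, 5.59, 5.44, 5.31 and 5.18 in UV-Titan females. In males its ratios were 5.49, 5.78, 5.30 and 5.28 in controls and 5.26, 5.60, 5.46 and 4.89 after UV-Titan. The female control values lay close together and below all the others except UV-Titan male 17. Cyp3a25 stood at 6.25, Cyp3a44 at 6.03 and Cyp3a13 at 5.21. In build mm7 of the array files the Cyp3a44 probe is placed at chr5:144587795-144587854 and the Cyp3a41 probe at chr5:144587472-144587531, both on the minus strand. These places lie nearer each other than the RefSeq promoters of Cyp3a41 and Cyp3a44 do. Which of these genes the Cyp3a44 probe reads is therefore unsettled.

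Cyp3a41 and Cyp3a44 are female-predominant in adult mice and lie near each other on chromosome 5. Their promoters are shown because the pair had high ratios in both sexes here, with TATAAA in capitals, at chr5:145720137-145720386 on the minus strand and at chr5:145805875-145806124 on the minus strand in assembly GRCm38.p6, from RefSeq.
Cyp3a41: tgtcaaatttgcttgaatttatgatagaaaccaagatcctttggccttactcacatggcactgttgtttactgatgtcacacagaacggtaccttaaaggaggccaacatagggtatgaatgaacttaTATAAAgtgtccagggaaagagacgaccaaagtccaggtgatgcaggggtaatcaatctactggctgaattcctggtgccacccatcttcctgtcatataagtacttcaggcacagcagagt
Cyp3a44: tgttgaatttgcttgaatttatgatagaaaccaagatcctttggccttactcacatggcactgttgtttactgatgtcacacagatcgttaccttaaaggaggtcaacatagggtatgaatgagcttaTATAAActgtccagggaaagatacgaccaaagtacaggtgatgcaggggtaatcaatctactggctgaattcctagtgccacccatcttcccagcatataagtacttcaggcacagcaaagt
The windows were identical at 236 of 250 bases (94.4%), and in both TATAAA begins at base -122. Set side by side without gaps, Cyp3a41 was 93.9% identical to Cyp3a16 over 246 bases and 45.1% identical to Cyp3a11 over 235 bases. A comparison without gaps misses likeness beyond any inserted or lost base. The Cyp3a11 value therefore does not measure how alike these promoters are.

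In family 4, the Cyp4a genes, fatty acid hydroxylases and targets of PPAR alpha, were on in all livers. Cyp4a14 had log2 ratios of 7.70, 7.68 and 7.50 in female controls and 7.99, 8.39, 7.78, 8.00 and 7.68 in UV-Titan females. In males its ratios were 7.85, 8.14, 7.87 and 8.09 in controls and 7.59, 8.13, 7.79 and 7.37 after UV-Titan. UV-Titan female 8 was highest and UV-Titan male 17 lowest. Cyp4a10 had ratios of 3.60, 3.46 and 3.25 in female controls, 3.82, 4.20, 3.60, 3.79 and 3.42 in UV-Titan females, 3.77, 3.86, 3.61 and 3.95 in male controls and 3.64, 3.99, 3.56 and 3.25 in UV-Titan males, with the groups overlapping. Male control 33, 1 of the 2 arrays with high pancreas markers, was the highest of the 16 in liver signal alone for Cyp4a10, Cyp4a12 and Cyp4a14, and its Cyp4a14 value was 17.15. Cyp4b1, a fatty acid and arene hydroxylase of lung, stood at 3.96 ± 0.22 (SD, n = 16). The Cyp4f genes, whose products inactivate leukotrienes and other eicosanoids, spread from Cyp4f15 (4.45) through Cyp4f18 (2.07), Cyp4f14 (1.59) and Cyp4f13 (1.16) to Cyp4f16 (-0.30). Cyp4v3 had a mean ratio of 2.43 and Cyp4x1, known from brain, of 0.31.

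No P450 gene of families 1 to 4 passed the test for UV-Titan in females. Limma called 0 of 52 genes at an adjusted p under 0.05, and 0% of the 18849 genes tested. The direction was uneven all the same, since 43 of the 52 genes had a higher ratio in UV-Titan females, against 58.7% of all genes. The median log2 difference was 0.22 over the 52 and 0.02 over all genes. At an unadjusted p under 0.05, 18 of the 52 passed, 17 of them higher and 1 lower, against 6.74% of all genes in either direction, 5.46% higher and 1.27% lower. That count depended on single arrays. It was 7 without female control 25, 10 without UV-Titan female 8 and 11 without UV-Titan female 2 or 10. Without female control 40 it was 12, and with the scanner software's processed signals 11. As no share of all genes is given for these settings, these counts cannot be set against 6.74%.

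The ratio and the liver channel gave different pictures of the female comparison. In the quantile-normalised liver channel 30 of 52 genes were higher in UV-Titan females, against 49.8% of all genes, the median difference was 0.02, and only 1 gene had an unadjusted p under 0.05, against 3.14% of all genes. That gene was Cyp2r1, with a difference of -0.24. In the reference channel, which held the same purchased RNA on every array, 37 of the 52 were lower on the UV-Titan female arrays, against 46% of all genes, with a median of -0.10. Scaling the liver channel by its median moved the whole array, with a median of 0.14 over all genes and 0.21 over the 52, and 37 of 52 higher against 74.5% of all genes. The mean log2 ratio of the 52 genes was 2.97 ± 0.14 in female controls (SD, n = 3) and 3.19 ± 0.13 in UV-Titan females (SD, n = 5). Their mean liver signal was 11.13 ± 0.08 and 11.14 ± 0.08, and their mean reference signal 7.64 ± 0.06 and 7.48 ± 0.11. Every marker list with tested genes had a median ratio difference above 0 in this comparison. It was 0.23 for intestine, 0.16 for lung, 0.09 for exocrine pancreas, 0.07 for skeletal muscle and 0.07 for adrenal markers. Hepatocyte and erythroid markers had the largest medians. All 7 hepatocyte markers had a higher ratio in UV-Titan females, with a median of 0.55 by ratio, 0.03 in liver signal alone and -0.50 in reference signal. Of the 6 erythroid markers, all on in all 16 livers, 5 had a higher ratio, with a median of 0.39 by ratio, -0.02 in liver signal and -0.19 in reference signal. On single arrays the mean hepatocyte ratio ran from 4.78 to 4.98 in female controls and from 4.99 to 5.95 in UV-Titan females. The summed raw liver signal of the 7 markers ran from 1320462 to 1576883 in female controls and from 1308720 to 1482297 in UV-Titan females. The summed raw liver signal of the erythroid markers ran from 629684 to 841465 in female controls and from 607965 to 822682 in UV-Titan females. The part of any of these lists in the P450 difference was not tested.

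**Figure D2:**
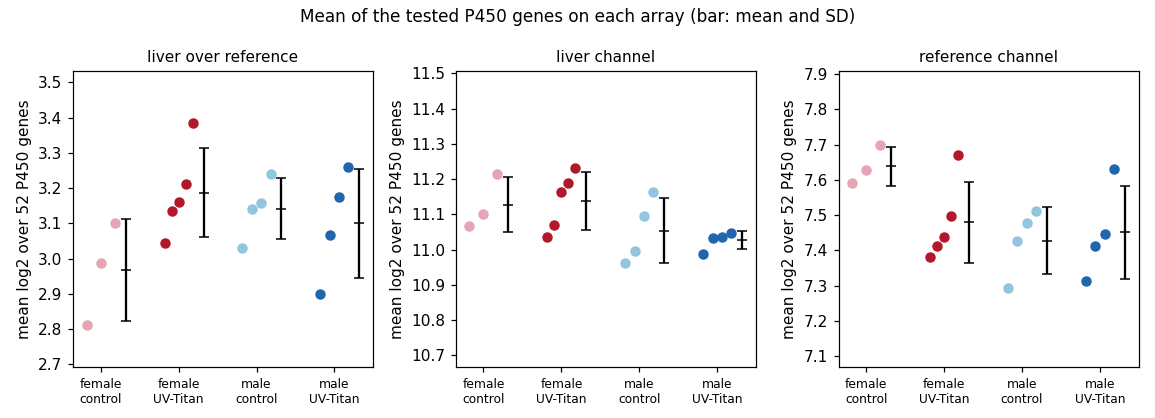
Mean log2 value over the 52 tested P450 genes (y axis) on each array (points) by group, for the ratio, the liver channel and the reference channel. Bars show the group mean and SD. By ratio the female control mean is 2.97 against 3.19 in UV-Titan females, for the liver channel 11.13 against 11.14, and for the reference channel 7.64 against 7.48.

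Cyp2d22, an enzyme often set beside human CYP2D6, had the smallest p in females. Its 60-base probe is placed at chr15:82458342-82458401 on the minus strand in build mm7 and is shown for identity.
Cyp2d22: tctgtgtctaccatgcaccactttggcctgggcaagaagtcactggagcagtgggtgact
Its log2 ratios were 4.16, 3.93 and 3.92 in female controls and 4.39, 4.55, 4.35, 4.29 and 4.21 in UV-Titan females. All 5 UV-Titan values lay above the 3 control values. The difference was 0.36 ± 0.09 (SE), with an adjusted p in limma of 0.469. In the liver channel the values were 12.61, 12.70 and 12.29 and 12.75, 12.65, 12.89, 12.72 and 12.36, which overlapped, and the difference was 0.14 ± 0.17. The 2 other probes of Cyp2d22, both on in all livers, gave smaller ratio differences in females, 0.19 and 0.14. Within slides holding both female groups, the ratio difference was 0.23, 0.36 and 0.29.

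Cyp2d10, Cyp2d9, Cyp3a44 and Cyp3a11 also had groups that did not overlap by ratio in females. With Cyp2d22 these made 5 of 52 genes with all UV-Titan females above all controls, against 3.21% of all genes, and in the liver channel there was none, against 1.07%. Cyp2d10 had ratios of 3.52, 3.59 and 3.58 in controls and 4.13, 4.37, 4.02, 3.92 and 3.81 after UV-Titan, a difference of 0.49 ± 0.16. Cyp2d9, a steroid hydroxylase that is male-predominant in adult mice, had 4.17, 4.09 and 4.12 against 4.87, 5.11, 4.62, 4.55 and 4.23, a difference of 0.55 ± 0.20. Both were highest in UV-Titan female 8. Cyp3a44 had 5.68, 5.70 and 5.74 against 6.23, 6.31, 6.23, 5.95 and 5.89, a difference of 0.41 ± 0.13. In the liver channel the Cyp3a44 difference had the opposite sign, at -0.17 ± 0.26, and the reference channel gave -0.54. A second Cyp3a44 probe, on in all livers, gave a ratio difference of 0.10. Whether the chosen probe reads Cyp3a44 alone is unsettled, as given above. For Cyp3a11 the difference was 0.38 ± 0.14 by ratio, -0.06 in liver and -0.40 in reference signal.

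Cyp4f15 and Cyp2e1 were higher by ratio with overlapping groups. Cyp4f15 had 4.37, 4.12 and 4.06 in female controls and 4.64, 4.97, 4.43, 4.37 and 4.48 in UV-Titan females, a difference of 0.39 ± 0.13. Cyp2e1 had 4.57, 4.64 and 4.37 against 5.21, 5.55, 5.15, 5.19 and 4.47, a difference of 0.59 ± 0.24 with an adjusted p in limma of 0.691. UV-Titan female 16 lay among the controls. The Cyp2e1 difference was 0.02 in liver and -0.52 in reference signal alone.

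Few P450 genes were lower in UV-Titan females. Cyp2c55 had -2.37, -2.41 and -1.92 in controls and -2.70, -2.58, -2.32, -2.72 and -2.41 after UV-Titan, a difference of -0.31 ± 0.11, with the groups overlapping. It was -0.15 without female control 25, which gave the value nearest 0. Cyp2u1 had ratios of 0.34, 0.47 and 0.26 against 0.18, 0.50, 0.21, 0.29 and 0.13, a difference of -0.09 ± 0.08. The Cyp1b1 difference was -0.16 ± 0.15, and its sign turned to 0.03 without female control 25.

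By subfamily, the female ratio difference was largest for Cyp2e (0.59), Cyp2f (0.42), Cyp2d (0.40) and Cyp2a (0.37). The Cyp2d mean over its 5 genes was 3.33 ± 0.10 in female controls (SD, n = 3) and 3.73 ± 0.21 in UV-Titan females (SD, n = 5), and in the liver channel 13.87 ± 0.16 and 13.96 ± 0.09. The Cyp3a mean over 6 genes was 6.14 ± 0.12 and 6.42 ± 0.14 by ratio, and 14.16 ± 0.23 and 14.09 ± 0.20 in the liver channel. For Cyp4a the ratio and the liver channel had opposite signs in females, at 0.26 and -0.24. The positive ratio holds for the chosen probes, since the other probes of Cyp4a10 gave -0.03 and -0.11 in females by ratio and the other probe of Cyp4a12 gave -0.43.

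**Figure D3:**
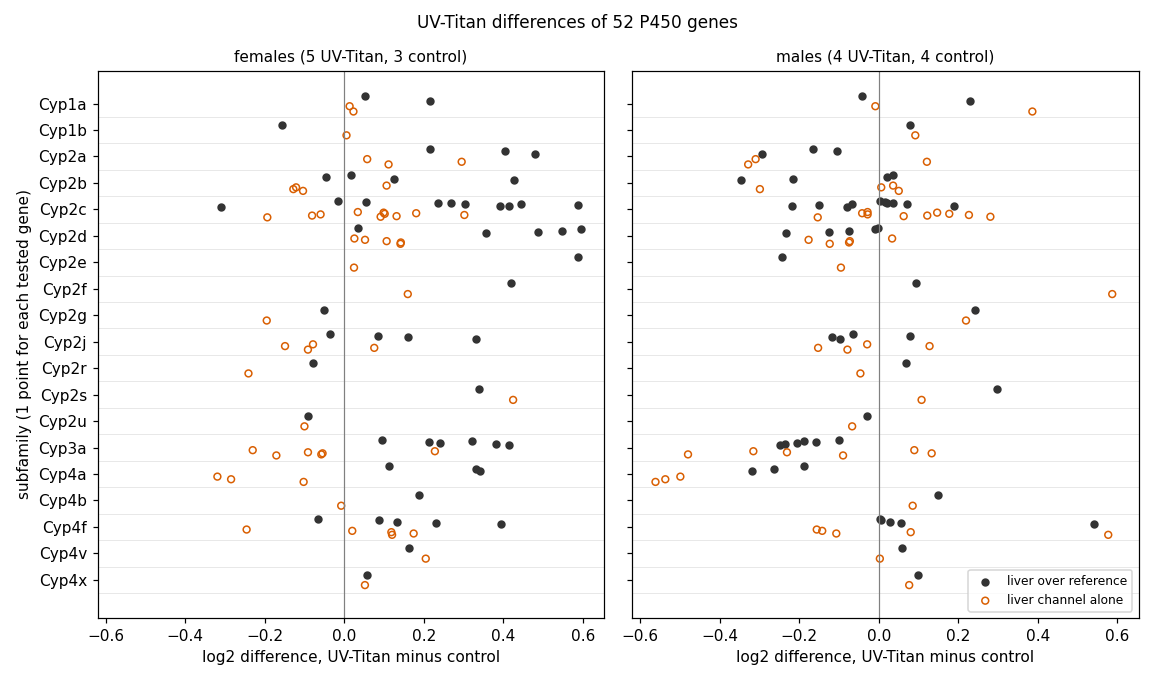
Log2 difference, UV-Titan minus control, of each of the 52 tested P450 genes (x axis) by subfamily (y axis), in females (left) and males (right). Filled points give the liver over reference ratio and open points the quantile-normalised liver channel. In females most filled points lie right of 0 (43 of 52) while open points lie on both sides (30 of 52 right of 0), and in males Cyp4f14 lies farthest right and Cyp2b9 farthest left by ratio.

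In males no P450 gene passed the test either. Limma called 0 of 52 genes, and 0% of all genes, and 2 of the 52 had an unadjusted p under 0.05, against 4.93% of all genes. The ratio was higher after UV-Titan for 23 of 52, against 56.6% of all genes, and the liver signal for 24, against 50.5%. The median log2 difference was -0.04 by ratio and -0.03 in the liver channel, against 0.02 and 0.0013 over all genes. Liver signal alone gave 5 of 52 at an unadjusted p under 0.05, against 3.24% of all genes, and without male controls 31 and 33 there was 1, Cyp4a14. By ratio the 2 became 5 without UV-Titan male 5, 4 without male control 43, 1 without male controls 31 and 33, and 5 with scan day as a block. No share of all genes is given beside the counts under changed settings, on either scale. Of the 9 exocrine pancreas markers on the array, 4 were on in all 16 livers and Pnlip in none, and their summed raw liver signal ran from 12258 to 29765 in male controls and from 12559 to 15306 in UV-Titan males. The mean log2 ratio of the 52 genes was 3.14 ± 0.09 in male controls and 3.10 ± 0.15 in UV-Titan males (SD, n = 4 each), and in the liver channel 11.05 ± 0.09 and 11.03 ± 0.03.

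Cyp4f14, an enzyme that hydroxylates leukotriene B4 in mouse liver, had the smallest p in males. Its log2 ratios were 1.48, 1.21, 1.54 and 0.95 in controls and 1.99, 1.61, 2.06 and 1.69 after UV-Titan, and in the liver channel 7.98, 7.79, 8.03 and 7.42 against 8.58, 8.21, 8.51 and 8.23. All 4 UV-Titan values lay above all 4 control values on both scales, as for 1 of 52 P450 genes, against 1.9% of all genes by ratio and 0.934% in the liver channel. The difference was 0.54 ± 0.17 by ratio and 0.58 ± 0.16 in the liver channel, with an adjusted p in limma of 0.950 by ratio. Male control 33 was the lowest array, and without male controls 31 and 33 the difference was 0.33 by ratio and 0.38 in the liver channel. Within the 3 slides shared by control and UV-Titan males it was 0.51, 0.39 and 0.52 by ratio. The 0.39 came from the slide of male control 31 and UV-Titan male 5, the arrays with high pancreas and muscle markers. In females the ratios were 1.53, 1.87 and 1.55 in controls and 1.53, 1.41, 1.21, 1.80 and 1.99 after UV-Titan, which overlapped.

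The 3 Cyp4a genes had lower values in UV-Titan males. Cyp4a12, the male-predominant member in adult mice, had ratios of 3.45, 3.44, 3.41 and 3.99 in controls and 3.02, 3.60, 3.05 and 3.35 after UV-Titan. Its liver channel values were 10.59, 10.26, 10.39 and 11.55 against 9.92, 10.51, 9.80 and 10.31. Male control 33 stood above the rest on both scales, and the groups overlapped. The difference was -0.32 ± 0.15 by ratio, with an adjusted p in limma of 0.950, and -0.56 ± 0.22 in the liver channel. Without male controls 31 and 33 it was -0.18 by ratio and -0.35 in the liver channel. Within slides it was -0.44, 0.16 and -0.36 by ratio, with 0.16 from the slide of male control 31 and UV-Titan male 5. For Cyp4a14 the difference was -0.26 ± 0.15 by ratio and -0.54 ± 0.19 in the liver channel, where the values were 16.47, 16.10, 16.31 and 17.15 against 15.72, 16.14, 15.90 and 16.12. Without male controls 31 and 33 the Cyp4a14 difference was -0.14 by ratio and -0.42 in the liver channel, and without UV-Titan male 5 it was -0.40 by ratio. Cyp4a10 differed by -0.19 ± 0.16 by ratio and -0.50 ± 0.29 in the liver channel, by -0.08 and -0.33 without male controls 31 and 33, and by -0.31 by ratio without UV-Titan male 5. The Cyp4a mean over the 3 genes was 13.13 ± 0.60 in control males and 12.59 ± 0.27 in UV-Titan males in the liver channel (SD, n = 4 each). The control mean without male controls 31 and 33 was 12.96, from the 2 arrays left at 12.81 and 13.12.

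None of the other genes passed the test in males, and several values depended on the arrays with pancreas or muscle markers. Cyp2s1, an epithelial P450, had ratios of -2.34, -1.93, -2.12 and -1.86 in controls and -1.59, -1.46, -1.79 and -2.22 after UV-Titan, a difference of 0.30 ± 0.15. The Cyp2s1 difference was 0.47 without male controls 31 and 33, and without UV-Titan male 5 it was 0.20. Cyp2g1 had 1.05, 1.25, 1.47 and 1.00 against 1.14, 1.33, 1.56 and 1.73, a difference of 0.24 ± 0.15. Cyp2b9 had 4.99, 5.38, 4.85 and 5.01 against 4.39, 5.15, 4.97 and 4.33, a difference of -0.35 ± 0.18 by ratio and 0.05 in the liver channel. UV-Titan males 4 and 17 were low for Cyp2b9 by ratio. A second Cyp2b9 probe, on in all livers, gave 0.05 by ratio, and without male controls 31 and 33 the first gave -0.21. The Cyp3a16 difference was -0.25 ± 0.14, and UV-Titan male 17 was the lowest of its group. It was -0.05 without male controls 31 and 33, and the Cyp2g1 difference was then 0.18. Cyp2f2 had the highest liver channel difference of the 52 genes, 0.59 ± 0.33, with 0.09 ± 0.20 by ratio. These were 0.12 and -0.09 without male controls 31 and 33, and without UV-Titan male 5 the ratio difference was -0.06.

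**Figure D4:**
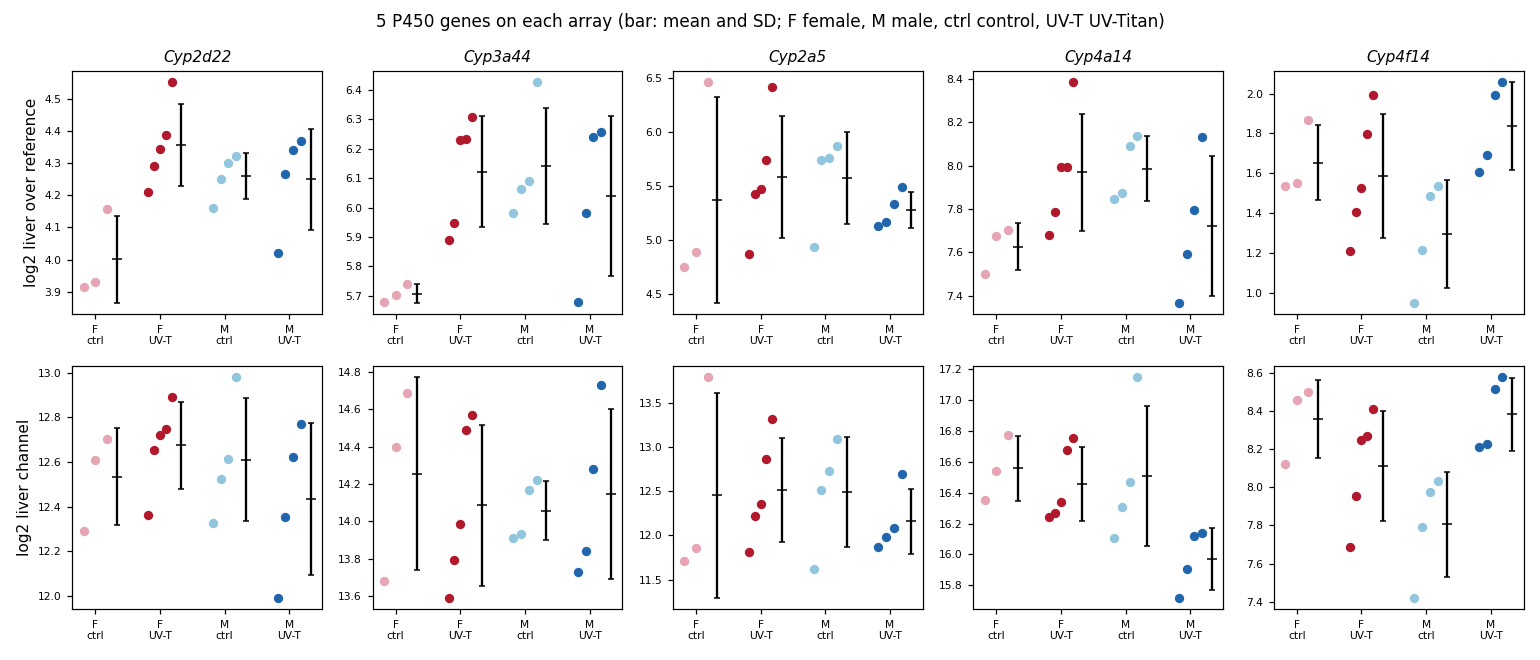
Log2 values (y axis) of Cyp2d22, Cyp3a44, Cyp2a5, Cyp4a14 and Cyp4f14 on each array (points) by group, as the liver over reference ratio (top) and in the liver channel (bottom). Bars show the group mean and SD. Cyp2d22 and Cyp3a44 separate the female groups by ratio only, and Cyp4f14 separates the male groups on both scales.

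Averaged over the sexes, limma called 0 of 52 genes and 0% of all genes. At an unadjusted p under 0.05 there were 3 of the 52, against 7.09% of all genes, and 39 were higher, against 60.6%, with a median of 0.09 against 0.02. The 3 were Cyp2s1 (0.32 ± 0.11, adjusted p in limma 0.542), Cyp2d22 (0.17 ± 0.06) and Cyp4f15 (0.21 ± 0.09). Liver signal alone gave 3 other genes, Cyp2b10, Cyp4a12 and Cyp4a14, all lower, against 2.97% of all genes. Without male controls 31 and 33, Cyp4a12 and Cyp4a14 were left, with liver channel differences of -0.34 and -0.26 in place of -0.44 and -0.32. The count by ratio was 15 without UV-Titan male 17, 6 without male control 31 or 43, 12 with scan day as a block and 11 with slide as a block. Shares of all genes under these changed settings are not given, so these counts cannot be set against 7.09%. In females the Cyp2s1 ratios were -1.99, -2.31 and -2.16 in controls and -1.63, -1.60, -1.95, -1.80 and -2.09 after UV-Titan, and the liver channel difference of the averaged comparison was 0.27. The averaged differences with the smallest p in the lower direction were -0.14 for Cyp2c55, -0.13 for Cyp2b10 and -0.06 for Cyp2u1. For Cyp2b10 the liver channel difference was -0.21 ± 0.09.

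The female effect minus the male effect was tested itself, and limma called 0 of 52 genes and 0% of all genes. At an unadjusted p under 0.05 there were 15 of the 52, against 4.3% of all genes, and 42 were above 0, against 52.6%, with a median of 0.25 against 0.01. Liver signal alone gave 2, against 2.84% of all genes, and the median was 0.06. The count by ratio was 4 without male controls 31 and 33, and 7 without male control 31 alone, where the shares of all genes are not given. Cyp2b9 differed by 0.77 ± 0.27, Cyp3a44 by 0.51 ± 0.19 and Cyp2d22 by 0.37 ± 0.13, each more positive in females. The second Cyp2b9 probe gave 0.14 and the second Cyp3a44 probe 0.29, and those of Cyp2d22 0.17 and 0.13. The first pair had the opposite sign in liver signal alone, at -0.15 and -0.26. Cyp2b9 ratios in females were 4.85, 4.63 and 4.38 in controls and 5.20, 5.37, 4.99, 5.02 and 4.67 after UV-Titan. The male Cyp2b9 difference by ratio was smaller in size without male controls 31 and 33, as given above. Cyp4f14 differed the other way, by -0.61 ± 0.24 by ratio and -0.82 ± 0.23 in the liver channel. Without male controls 31 and 33 the Cyp4f14 value was -0.39 by ratio. Cyp2c55 (-0.35 ± 0.16) and Cyp2g1 (-0.29 ± 0.21) followed, and the adjusted p of these genes was 0.979.

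The sexes did not separate for any P450 gene. Limma called 0 of 52 genes between males and females, against 0.0477% of all genes, which were 9 genes. One of the 52, Cyp2c55, had an unadjusted p under 0.05 (-0.18 ± 0.08, adjusted p in limma 0.977), against 4.29% of all genes, and liver signal alone gave 0, against 2.21%. Without male controls 31 and 33 liver signal alone gave 5, Cyp2u1, Cyp3a25, Cyp4a10, Cyp4a12 and Cyp4a14, all lower in males. The share of all genes without those arrays is not given, so the 5 cannot be set against 2.21%. Over the 52 genes 33 were higher in males by ratio, against 48.6% of all genes, 9 in the liver channel, against 47.3%, and 44 were lower in the reference channel. For none of the 52 did males and females fail to overlap by ratio, against 0.0212% of all genes with all males higher and 0.0531% with all males lower. The list of 9 adult female-predominant genes on the array had ratios higher in males for all 9, with a median of 0.07, and a median of -0.09 in the liver channel. Cyp3a44 differed by 0.18 ± 0.09 (male minus female) by ratio and -0.07 in the liver channel, and Cyp3a41 by 0.08 ± 0.10 and -0.11. Cyp3a41 ratios were 8.01, 8.21 and 7.77 in female controls and 8.08, 8.56, 8.02 and 8.25 in male controls, with overlapping ranges. Of the 5 adult male-predominant genes 2 were higher in males by ratio and 3 lower. Cyp2d9 differed by 0.25 ± 0.14 and Cyp4a12 by -0.14 ± 0.11. The other genes with the smallest p were Cyp2d10 (0.22), Cyp2e1 (0.29), Cyp4f13 (-0.12) and Cyp2u1 (-0.08).

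**Figure D5:**
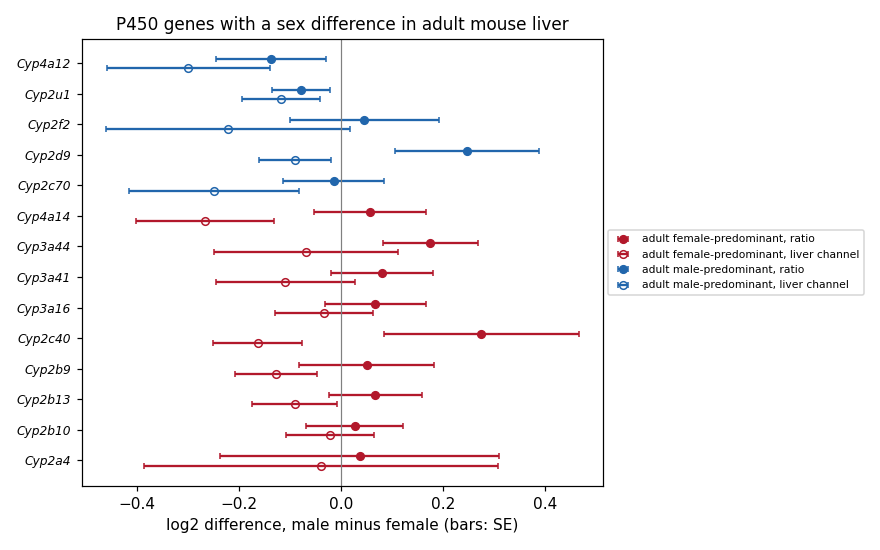
Log2 difference, male minus female (x axis), of genes listed as female-predominant (red) or male-predominant (blue) in adult mouse liver (y axis), by ratio (filled) and in the liver channel (open). Bars show the SE of the fit. The female-predominant genes lie right of 0 by ratio and left of 0 in the liver channel.

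Lists of genes around the P450 enzymes held no gene called by limma in any comparison. For the counts by ratio that follow, 58.7% of all genes were higher in UV-Titan females and 56.6% in UV-Titan males. Of 7 aryl hydrocarbon receptor targets tested, 2 were higher and 5 lower in UV-Titan females, and likewise 2 and 5 in males. These targets include Cyp1b1, which was already counted above. Of 12 targets of the constitutive androstane and pregnane X receptors, 10 were higher in females and 3 in males. Their medians were 0.26 and -0.17 by ratio and -0.04 and -0.22 in the liver channel. Most of these targets were P450 genes already counted above, so this split is not independent of those counts. Among the targets that are not P450 genes, Ces2 differed by 0.31 in females and -0.01 in males by ratio. Gstm3 differed by 0.07 in females and -0.24 in males. The 3 Cyp4a genes had medians of 0.33 in females and -0.26 in males by ratio, and -0.28 and -0.54 in the liver channel, with the female ratio resting on the choice of probes as given above. Of 18 receptors and transcription factors that act on P450 genes, 16 were higher by ratio in UV-Titan females and 9 in males, with medians of 0.16 and -0.00038 by ratio and -0.00081 and -0.03 in the liver channel. Nr1i3, the constitutive androstane receptor, differed by 0.29 ± 0.08 in females by ratio (SE, adjusted p in limma 0.612) and by 0.27 in the liver channel. Of 13 genes for electron supply and haem synthesis, 9 were higher in females and 8 in males, and Por, the reductase that feeds electrons to all microsomal P450 enzymes, differed by 0.16 ± 0.13 and -0.24 ± 0.13.

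Genes with several probes gave a check within the array. Of the 54 genes, 24 had more than 1 probe, and 18 had more than 1 that was on. The probes gave the same sign of the UV-Titan difference for 14 of 18 genes in females and 14 of 18 in males. Their mean log2 ratios differed by up to 2.76, for Cyp3a25, and by more than 1 for 8 genes, so that a level over the reference is that of a probe rather than of a gene.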

How the data were processed

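Total RNA from 16 offspring livers was labelled and hybridised to two-colour Agilent mouse arrays with a common reference RNA, per the labels' protocols. The authors deposited scanner files that give, for both channels, the uncorrected intensity of each spot and of its local background, and intensity values already background-subtracted and dye-normalised by Feature Extraction, per the file headers. A deposited table of log2 values has a normalisation that is not given in the sources used here. Set against the scanner signals of the same arrays, its columns were red over green (r 0.984 to 0.993, slope 0.991 to 1.10), with medians of -0.045 to -0.0375.

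From the scanner intensities, red and green were corrected by normexp (offset 50) and set against each other by loess in each array, leaving control and outlier spots without weight (limma 3.58.1, R 4.3.3). The liver and reference channels alone are log2 values after normexp, quantile-normalised between arrays. The 54 genes were found by name, and the probe with the highest mean red signal stood for each gene. A gene was tested if well above background in red on at least 3 arrays, which left 18849 genes after 1 gene with no value in a group was dropped. A linear model of the 16 arrays held 4 group means and gave 5 two-sided comparisons. P-values were adjusted by Benjamini-Hochberg over every gene tested, with a threshold of 0.05. The fit was tested on simulated data. Arrays of 1 group correlated at r 0.969 to 0.991 across genes, and 0 spots were saturated. The number of arrays limits the precision.

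The P450 genes and the gene lists were chosen with earlier results of these data known. Values by array are given for a fixed panel and for the 3 genes with the smallest p in each direction of each comparison. All 54 names were matched to RefSeq gene symbols, 49 of them by accession. Promoters came from the RefSeq promoter table of GRCm38.p6, which held 44 of the 54 genes. Slide, scan day, background correction, filter, probe choice, channel scaling and each array left out were tried as alternatives. Figures were drawn with matplotlib 3.10.9.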

Additional observations from a re-analysis of the deposited data

Results flagged for a closer look

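Among 75 groups of 4 or 5 arrays tested for the 25 genes described by array, 5 (6.67%) held an array far from the others of its group by Dixon's ratio, where chance gives about 1 in 20. Cyp1a2 had a log2 ratio of 2.08 on UV-Titan female 8, with the nearest array of that group at 2.66. Cyp2a5 had 4.94 on male control 41, with the nearest at 5.74. Male control 31, 1 of the arrays with high pancreas markers, had 6.23 for Cyp2c29 (nearest 5.78) and 4.41 for Cyp2d10 (nearest 3.96). Male control 33, the other such array, had 3.99 for Cyp4a12 (nearest 3.45), and 11.55 in the liver channel. The part of pancreas RNA in these values was not tested.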

How the results depend on the processing

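The count of P450 genes called stayed at 0 in each of the 5 comparisons under all 31 other settings. Of 157 further values of medians and of the count of genes on, 153 kept their direction and size, as did 905 of 926 values of single genes in direction. The count of genes on was 46 to 51. In the quantile-normalised liver channel the female median was 0.024, with or without male controls 31 and 33, and the median of the female minus male effect was 0.062, or 0.037 without those arrays. The following signs turned in that channel, with the value without male controls 31 and 33 second. Cyp2b9 in males became 0.050 and 0.11, Cyp2d22 averaged over the sexes -0.018 and -0.11, and the female minus male effect -0.15 and -0.21 for Cyp2b9 and -0.26 and -0.24 for Cyp3a44. The male minus female difference became -0.091 and -0.075 for Cyp2d10, -0.069 and -0.059 for Cyp3a44, and -0.20 and -0.18 for Cyp2e1, which was -0.073 in the median-centred liver channel. Cyp1b1 in females became 0.0057 in both liver channel settings, 0.11 with processed signals, 0.12 without background subtraction and 0.083 in the authors' deposited table. With each array left out in turn it ran from -0.26 to 0.031. The causes were not tested. Left-out arrays moved the female median between 0.13 and 0.28, the male between -0.066 and 0.022, and the female minus male one between 0.17 and 0.34. Slide as a block gave a female median of 0.19 and scan day 0.18, and within the 3 slides with both female groups it was 0.069, 0.25 and 0.28. The groups share no replicate numbers, so only slide and scan day could serve as a block. With 3 to 5 animals a group and ages not given, small differences were not detectable, and low ratios near the offset are compressed.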

Other observations

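The array also held 17 P450 genes outside families 1 to 4, of which 14 were tested and none was called by limma. In UV-Titan females 11 of the 14 had a higher ratio and 3 a lower one, and in males 7 and 7. Of all genes 58.7% had a higher ratio in UV-Titan females and 56.6% in UV-Titan males. Tbxas1, the thromboxane synthase of platelets and macrophages, differed by 0.49 ± 0.11 in females by ratio (SE, adjusted p in limma 0.266) and by 0.31 in the liver channel. Cyp26b1, a retinoic acid hydroxylase, differed by 0.92 ± 0.25 in females (adjusted p in limma 0.534) and by 0.85 in the liver channel, and Cyp7b1, an oxysterol hydroxylase, by 0.38 ± 0.15 and 0.25. For these genes the liver channel had the sign of the ratio. Cyp7a1, the rate-limiting enzyme of bile acid synthesis, had a mean log2 ratio of 3.41 ± 0.38 (SD, n = 16), and Cyp8b1, a sterol hydroxylase of the same pathway, 2.57 ± 0.30.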
